A study of Mus musculus with 2 samples.

Results

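The genes followed here are the 3 TGF-beta ligands (Tgfb1, Tgfb2 and Tgfb3), the receptors Tgfbr1 and Tgfbr2, the co-receptors Tgfbr3 (betaglycan) and Eng (endoglin), the type I receptor Acvrl1 (ALK1), the inhibitor Smad7 and Tgfbi, a matrix gene named for its induction by TGF-beta. They were chosen by symbol, with earlier results of these data known, and are 10 of the 32285 genes in the count matrices. Each was counted in every cell class of tumors grown from LLC cells (Lewis lung carcinoma, a mouse lung cancer line) in C57BL/6 mice. The control group, sGC Ctr (library CT), had the genotype Gucy1b1 flox/flox. The genotype of sGC ∆PC (library KO) reads Cspg4-CreER T2::Gucyc1b1 flox/flox, taken here as the floxed Gucy1b1 alleles together with a tamoxifen-dependent Cre under Cspg4, a gene of pericytes. Gucy1b1 encodes the beta subunit of soluble guanylate cyclase, the nitric oxide receptor. Every mouse, of either genotype, was given tamoxifen 5 times when 4 weeks old and LLC cells under the skin when 8 weeks old, and its tumor was taken 2 weeks later. Each group is 1 library of dissociated cells from 3 pooled tumors (10x Chromium), so the condition and the library cannot be told apart, no test between the groups is possible, and all intervals (95%) cover counting error only.

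TGF-beta ligands are secreted in a latent form that is held in the matrix and has to be released before it can bind. The active ligand binds the type II receptor (Tgfbr2), which joins and phosphorylates a type I receptor (Tgfbr1, or Acvrl1 in endothelium), and Smad proteins then carry the signal to the nucleus. Betaglycan presents ligand to the receptors, endoglin is a co-receptor best known in endothelial cells, and Smad7 is a feedback inhibitor. In tumors the pathway is known for its actions on vessels, on fibroblasts and on immune cells. The study asks what loss of the nitric oxide receptor in pericytes does to the tumor and its vessels, and the comparison of sGC ∆PC with sGC Ctr addresses it.

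On the genome build GRCm38 the ligand genes lie at chr7:25687002-25705077 (Tgfb1, plus strand), chr1:186622792-186705989 (Tgfb2, minus strand) and chr12:86056745-86079041 (Tgfb3, minus strand). The receptors lie at chr4:47353222-47414931 (Tgfbr1, plus), chr9:116084293-116175360 (Tgfbr2, minus) and chr15:101128522-101145336 (Acvrl1, plus), and the co-receptors at chr5:107106570-107289629 (Tgfbr3, minus) and chr2:32646595-32682669 (Eng, plus). Tgfbi lies at chr13:56609523-56639562 on the plus strand. The counts are summed per gene, not per exon, and the UMIs come from the 3′ end of transcripts.

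Of the 10 genes Eng had the largest step from its highest to its next cell class in both libraries, and the sequence before its start is therefore shown. The set of RefSeq promoters used here held an entry for 6 of the 10 genes. The 250 bases before the start of Eng (GRCm38.p6, chr2:32646345-32646594, plus strand) are printed with 2 short motifs in capitals, GGAAG (the core bound by ETS factors, CTTCC on the other strand) and CAGAC (a short site bound by SMAD factors, GTCTG on the other strand).
Eng promoter: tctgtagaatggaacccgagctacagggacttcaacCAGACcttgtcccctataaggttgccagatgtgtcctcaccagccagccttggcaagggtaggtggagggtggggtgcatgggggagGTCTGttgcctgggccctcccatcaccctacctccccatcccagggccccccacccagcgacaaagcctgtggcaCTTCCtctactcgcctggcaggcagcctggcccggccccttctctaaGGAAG
Each motif occurs at 2 places, GGAAG starting 52 and 5 bases before the gene and CAGAC 214 and 127 bases before it. Over the 250 bases before the start of all 32851 entries, GGAAG was found on either strand in 64.1% and CAGAC in 42.2%, and the motifs overlap each other nowhere in the Eng window. The presence of these letters does not show a binding site.

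The sGC Ctr library holds 15007 barcodes and 487859656 UMIs (molecules counted once), and the sGC ∆PC library 25631 barcodes and 436352742 UMIs; 131 barcode sequences occur in both. Filters kept 12220 and 22498 cells with medians of 35776.5 and 8685 UMIs. Cells were assigned one by one to a class from the share of its marker genes, and cells with 4 or more cancer-cell marker UMIs per 10000 (Krt8, Krt18, Rhox5 and Hmga2) were left out of the other classes. This gave, in sGC Ctr and sGC ∆PC, 54 and 57 endothelial cells (ECs), 27 and 23 pericytes, 119 and 176 fibroblasts, 2114 and 2395 macrophages, 423 and 355 monocytes, 180 and 220 granulocytes, 33 and 33 dendritic cells, 47 and 47 T cells, and 6917 and 10960 cancer cells. Of the kept cells 18.8% and 36.5% stayed without a class, so more of sGC ∆PC is left out. All markers of each of the 9 classes were found in both libraries. The cancer-cell markers summed to between 0.777 and 1.62 UMIs per 10000 in the other 8 classes, against 18.3 and 17.5 in cancer cells. Levels are given as CPM, the UMIs of a gene scaled to 1000000 UMIs of the class. In pericytes the targeted gene Gucy1b1 stood at 120 CPM (37 UMIs in 15 of 27 cells) in the control library and at 32.5 CPM (6 UMIs in 5 of 23 cells) in the other, with a log2 ratio of -1.89 (-3.42 to -0.63). The deleted exon is not given in the sources used here and the UMIs come from the 3′ end of transcripts, so how fully the count reports the deletion is unknown. Cspg4, the gene whose promoter drives the Cre, was found in pericytes (152 and 70.3 CPM) and also in macrophages (53.7 and 32.3 CPM). Its log2 ratios were -1.12 (-2.13 to -0.21) and -0.74 (-0.87 to -0.60). The paper describes the Cre line as a knock-in, and only the genotype of sGC ∆PC names it. The part of the altered Cspg4 allele in these ratios was not tested.

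**Figure D1:**
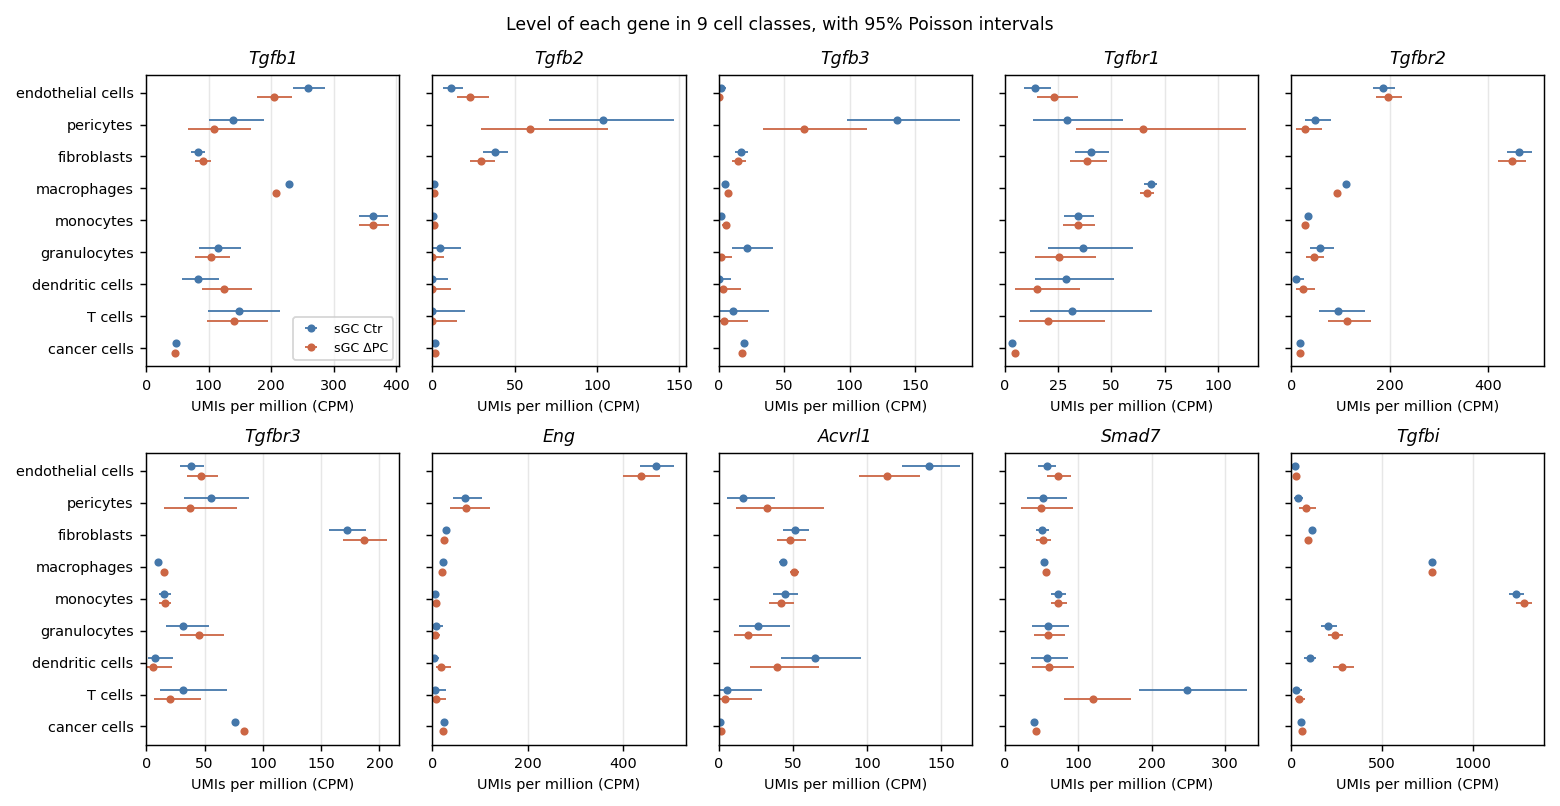
Level of each of the 10 genes in 9 cell classes, in CPM (UMIs per 1000000 UMIs of the class, horizontal axis, a separate scale for each gene), for sGC Ctr (blue) and sGC ∆PC (orange); points are the value of the single library and lines its 95% Poisson interval. Eng stood highest in endothelial cells at 470 and 438 CPM, Tgfbr2 in fibroblasts at 462 and 447, and Tgfbi in monocytes at 1240 and 1283.

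The class with the highest level was the same in both libraries for 10 of the 10 genes, as the plot of levels by class shows. Of the ligands, Tgfb1 was highest in another class than Tgfb2 and Tgfb3. Tgfb1, the ligand best known from immune cells, was highest in monocytes, with 363 CPM (341 to 386) in sGC Ctr and 364 CPM (340 to 388) in sGC ∆PC. ECs followed in sGC Ctr at 260 CPM (234 to 287) and macrophages at 229 (223 to 235), and these neighbors overlap at the edge of their intervals. In sGC ∆PC macrophages had 208 CPM (202 to 215) and ECs 204 CPM (178 to 233), again with overlapping intervals. Cancer cells had the lowest level, 46.9 and 46.6 CPM. Cancer cells, the class with the most cells and UMIs, held 70.3% and 71.0% of the Tgfb1 UMIs of the 9 classes, macrophages 23.1% and 22.0%, and ECs 1.47% and 1.06%. These shares follow the number of cells captured and their RNA, which cannot be told apart here.

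Tgfb2 and Tgfb3, the ligands known from mesenchymal tissue, were highest in pericytes. Tgfb2 had 32 UMIs (104 CPM, 71.0 to 147) in the pericytes of sGC Ctr and 11 (59.5 CPM, 29.7 to 106) in those of sGC ∆PC. Fibroblasts came next with 37.8 and 29.6 CPM, separate from pericytes in sGC Ctr and overlapping with them in sGC ∆PC. No Tgfb2 UMI was found in dendritic cells or T cells of either library, which allows a level of up to 7.79 and 9.10 CPM in dendritic cells and 15.8 and 12.02 CPM in T cells (3 UMIs). Tgfb3 had 136 CPM (98.2 to 184) and 64.9 CPM (33.5 to 113) in pericytes, above the 19.5 and 17.8 CPM of cancer cells and the 17.0 and 14.8 CPM of fibroblasts. Granulocytes had 21.9 CPM of it from 9 UMIs in sGC Ctr and 1.82 CPM from 1 UMI in the other library. Cancer cells held 96.9% and 96.4% of all Tgfb3 UMIs. Of ECs, those of the control held 3 Tgfb3 UMIs and those of sGC ∆PC 0, which allows up to 2.77 CPM.

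The 2 TGF-beta receptors also differed in where they were found. Tgfbr1, the type I receptor, was highest in macrophages at 68.4 CPM (65.3 to 71.6) and 66.7 CPM (63.3 to 70.2). Fibroblasts had 40.4 and 38.5 CPM, monocytes 34.2 and 34.2, and cancer cells 3.18 and 4.59. The pericytes of sGC ∆PC, at 64.9 CPM from 12 UMIs, overlap with macrophages. Tgfbr2, the type II receptor, was highest in fibroblasts with 462 CPM (437 to 489) and 447 CPM (418 to 477), which is 2.48 and 2.27 times the level of ECs (187 and 197 CPM). Macrophages had 111 and 92.6 CPM, T cells 95.1 and 112, and monocytes 33.4 and 27.0. T cells lay below macrophages in sGC Ctr and above them in sGC ∆PC, with overlapping intervals in both. Cancer cells had 16.8 and 17.8 CPM, and dendritic cells held 4 and 8 UMIs.

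The co-receptors and Acvrl1 had their highest levels in fibroblasts or ECs. Tgfbr3 was highest in fibroblasts (172 CPM, 157 to 189, and 187 CPM, 169 to 207) and second in cancer cells (75.7 and 83.7 CPM), where 91.4% and 63.4% of cells had a UMI at full depth and 14.6% and 14.1% after every cell was thinned at random to 2000 UMIs. Cancer cells held 97.2% and 96.9% of the Tgfbr3 UMIs. Eng was highest in ECs, with 696 UMIs (470 CPM, 436 to 507) and 474 UMIs (438 CPM, 399 to 479), 6.90 and 6.23 times the level of pericytes (68.1 and 70.3 CPM). At 2000 UMIs per cell an Eng UMI was found in 53.7% (39.6 to 67.4) and 49.1% (35.1 to 63.2) of ECs, against 2.38% and 2.22% of T cells and 0.877% and 0.649% of granulocytes, classes not known for the gene. The unthinned shares in ECs, at medians of 24588 and 11717 UMIs, were 98.1% and 80.7%, and those in T cells, at 3124 and 4344, were 2.13% and 4.26%. Fibroblasts had 28.3 and 24.7 CPM of Eng, cancer cells 24.5 and 22.5, and macrophages 21.2 and 20.6; cancer cells held 87.5% and 87.6% of its UMIs. Acvrl1 was highest in ECs at 142 CPM (123 to 162) and 114 CPM (94.4 to 136), 2.19 and 2.24 times the next class, which was dendritic cells in sGC Ctr (64.9 CPM) and macrophages in sGC ∆PC (50.8 CPM). Its level in cancer cells was 0.561 and 1.39 CPM.

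Smad7, the inhibitor, was highest in T cells, with 47 UMIs (248 CPM, 182 to 330) in sGC Ctr and 30 UMIs (120 CPM, 81.1 to 172) in sGC ∆PC. Monocytes came second at 72.0 and 72.8 CPM, separate from T cells in sGC Ctr and overlapping in sGC ∆PC. The remaining 7 classes lay between 40.1 and 58.3 CPM in sGC Ctr and between 41.7 and 72.1 in sGC ∆PC, mostly with overlapping intervals. Tgfbi, the matrix gene, was highest in monocytes and next in macrophages. Monocytes had 1240 CPM (1199 to 1283) and 1283 CPM (1239 to 1329), macrophages 775 and 776, granulocytes 204 and 240, and fibroblasts 112 and 93.7. Dendritic cells had 101 and 282 CPM. ECs were lowest, at 20.3 and 26.8 CPM. Cancer cells, at 53.9 and 61.8 CPM, held 46.5% and 48.6% of the Tgfbi UMIs, and macrophages 45.0% and 42.3%. At 2000 UMIs a Tgfbi UMI was found in 77.5% and 81.5% of monocytes, 67.4% and 63.5% of macrophages and 4.76% and 4.44% of T cells.

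Across the 18 points of class and library, the genes whose log2(CPM + 1) followed each member most closely were drawn from 12391 genes, markers and members left out. For Eng these were Tcf4 (Pearson r = 0.95), Chst1 (0.94) and Plxnd1 (0.93), and for Tgfb2 they were Ebf1 (0.98), Gpx3 (0.94) and Rhoj (0.94). Tgfbr3 was followed by Frmd6 (0.95), Rcn1 (0.93) and Aebp1 (0.93), and Tgfbi by Ctsz (0.93), Gm21188 (0.93) and Cybb (0.92). Tgfb1 went with Klf13 (0.93), Rnf111 (0.90) and Ube2a (0.88), Smad7 with Leprotl1 (0.93), Elf1 (0.91) and Nkg7 (0.88), and Acvrl1 with Gngt2 (0.92), App (0.89) and Tcn2 (0.87). The nearest patterns were less close for Tgfb3 (Gm13470 0.89, Mtcl1 0.88, Ift43 0.88), Tgfbr2 (Slc38a10 0.86, Sec24a 0.85, Zdhhc20 0.84) and Tgfbr1 (Cpeb4 0.84, Ggh 0.82, Usp9x 0.82). The 9 classes of a library share their tumors and free RNA and differ in depth, so these values describe the points and are not tests.

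Between the libraries most members differed by little in the classes where they could be measured. Of the 90 pairs of a member and a class, 52 had at least 50 UMIs in both libraries together, and 4 of these differed 2-fold or more in either direction. They were Tgfb3 in pericytes, Smad7 in T cells, Tgfbi in dendritic cells and Acvrl1 in cancer cells, where 2, 2, 2 and 10 members had enough UMIs. The share of all genes past 2-fold was 3.79% in pericytes, 3.6% in T cells, 2.34% in dendritic cells and 3.78% in cancer cells. In ECs, fibroblasts, macrophages, monocytes and granulocytes 0 of 7, 10, 9, 7 and 3 members passed, with 1.47%, 1.95%, 1.12%, 0.575% and 2.93% of all genes past 2-fold. The log2 ratio, positive where sGC ∆PC had the higher level, had an interval that excluded 0 in 18 pairs, 8 lower and 10 higher in sGC ∆PC, and 9 of these 18 were in cancer cells, where counts are largest. The spread between tumors, which the libraries do not show, may exceed these intervals.

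**Figure D2:**
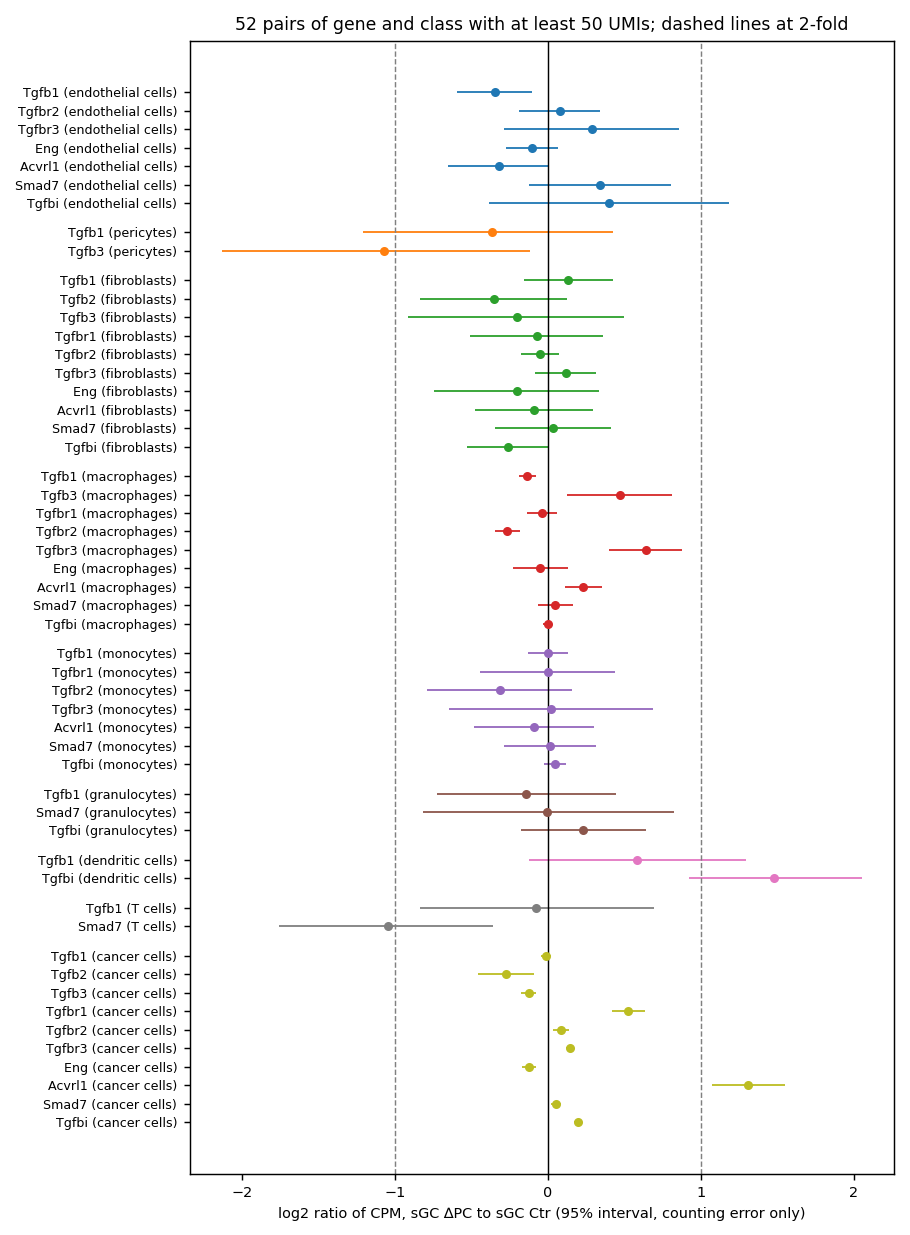
Log2 ratio of CPM between the libraries (horizontal axis, positive where sGC ∆PC is higher), for the 52 pairs of gene and class with at least 50 UMIs, colored by class, with 95% counting intervals as lines and 2-fold marked by dashed lines. Of these points 4 lie past 2-fold: Tgfb3 in pericytes at -1.07, Smad7 in T cells at -1.05, Tgfbi in dendritic cells at 1.48 and Acvrl1 in cancer cells at 1.31.

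In ECs, the class that lines the vessels, Tgfb1 was lower in sGC ∆PC (221 UMIs, 204 CPM) than in the control (384 UMIs, 260 CPM), at a log2 ratio of -0.35 (-0.59 to -0.10). At 2000 UMIs per cell 48.1% (34.3 to 62.2) and 37.7% (24.8 to 52.1) of ECs had a Tgfb1 UMI, and these intervals overlap. Thinning left out 0 and 4 ECs with under 2000 UMIs. Eng differed by -0.10 (-0.27 to 0.07), and by -0.43 (-1.03 to 0.16) in the thinned cells. Acvrl1 differed by -0.32 (-0.65 to 0.01) and Tgfbr2 by 0.08 (-0.19 to 0.34). The intervals of Smad7 (84 and 78 UMIs, 0.34, -0.12 to 0.81), Tgfbr3 (57 and 51 UMIs, 0.29, -0.28 to 0.86) and Tgfbi (30 and 29 UMIs, 0.40, -0.39 to 1.19) are wider. The median over the 7 measured members was 0.08 and that over all 5936 genes 0.00.

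These EC ratios depend on how cells holding RNA of cancer cells were treated. With no limit on cancer-cell markers there were 73 and 198 ECs with 4.19 and 10.2 cancer-cell marker UMIs per 10000, and the ratio of Eng became -0.87 (-1.02 to -0.72) and that of Tgfb1 -0.72 (-0.92 to -0.52). In Leiden clusters, with 84 and 296 cells in those named ECs and 3.86 and 12.5 such UMIs per 10000, the ratios were -1.37 for Eng and -1.001 for Tgfb1. With a stricter limit of 2 per 10000, 45 and 45 ECs at 0.688 and 0.633, they were -0.10 and -0.33. The ratio of these genes was thus farther from 0 where the sGC ∆PC cells held more of the cancer-cell markers, as the plot of log2 ratios by choice of cells shows.

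**Figure D3:**
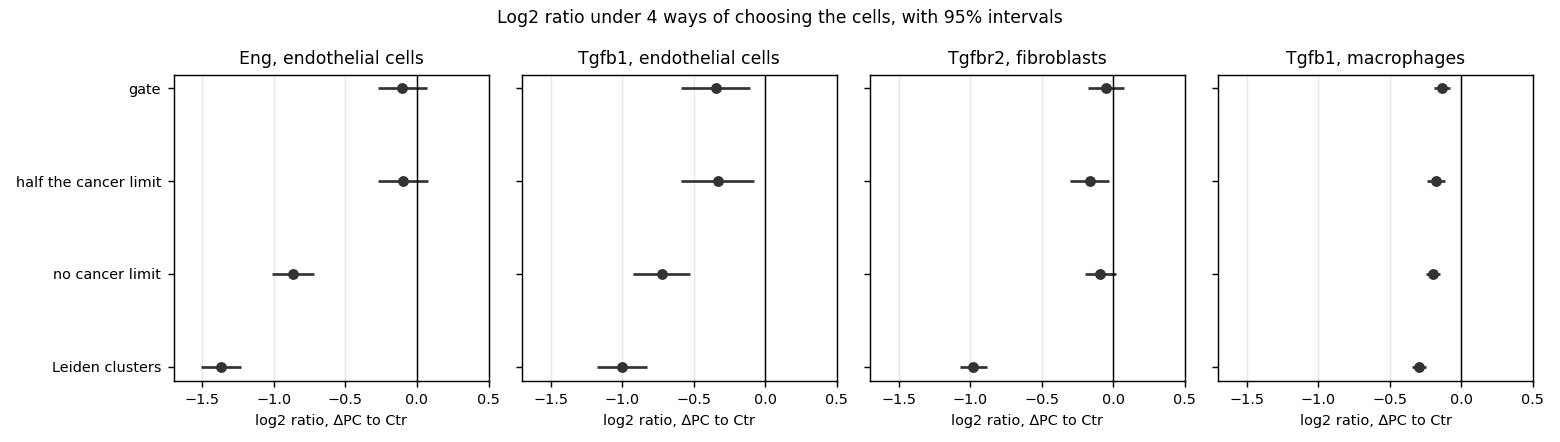
Log2 ratio between the libraries (horizontal axis, positive where sGC ∆PC is higher, 95% counting intervals as lines) for 4 pairs of gene and class under the gate (limit of 4 cancer-cell marker UMIs per 10000), with a limit of 2, with no limit, and in Leiden clusters. For Eng in endothelial cells the ratio was -0.10 under the gate, -0.10 at the limit of 2, -0.87 without a limit and -1.37 in clusters. Tgfbr2 was at -0.05 in fibroblasts under the gate and at -0.98 in the clusters named fibroblasts. The sGC ∆PC clusters named endothelial cells and fibroblasts also passed the gate of cancer cells, at 1.565 and 1.572 times its marker share.

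In pericytes, the cells in which the Cre is meant to act, few UMIs were left. Tgfb3, at 136 CPM from 42 UMIs and 64.9 CPM from 12, was lower in sGC ∆PC by the counts (-1.07, -2.13 to -0.12). These UMIs lay in 9 cells of each library, and a single cell held 13 of the 42 and another 4 of the 12. This ratio depends on the gate: with all gates doubled, which gave 37 and 28 pericytes with 50 and 25 UMIs of Tgfb3, it was -0.21 (-0.96 to 0.51). With no limit on cancer-cell markers it was -0.79 (-1.36 to -0.22), in 39 and 123 cells with 12.6 and 12.1 such UMIs per 10000. In Leiden clusters it was -0.54 (-1.01 to -0.06), in 53 and 209 cells named pericytes. Cancer cells held 18.3 and 17.5 such UMIs per 10000 and 19.5 and 17.8 CPM of Tgfb3, and the part of their RNA in these ratios was not tested. Under the gate, without the top cell of each library, the levels of Tgfb3 were 102 and 47.2 CPM and the ratio -1.11, with an interval that reached 0 (-2.45 to 0.05). Tgfb1 had 43 and 20 UMIs (139 and 108 CPM), a ratio of -0.37 (-1.21 to 0.43) that turned to 0.33 (-0.67 to 1.31) with the gates halved. Tgfb2, under the limit of 50 UMIs, had a ratio of -0.80 (-1.94 to 0.22), and 12 of its 32 UMIs in sGC Ctr and 6 of its 11 in sGC ∆PC came from 1 cell. The other 7 members had between 5 and 21 UMIs in each library, and the intervals of their ratios all included 0. In pericytes of sGC ∆PC the cancer-cell markers summed to 1.62 per 10000 against 0.876 in sGC Ctr, and the part of this in the ratios was not tested.

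In fibroblasts, the class with the highest levels of Tgfbr2 and Tgfbr3, all 10 members had enough UMIs and under the gate all 10 intervals included 0. Tgfbr2 had 1225 and 906 UMIs with a log2 ratio of -0.05 (-0.17 to 0.08), Tgfbr1 107 and 78 (-0.07, -0.51 to 0.36) and Tgfbr3 456 and 379 (0.12, -0.08 to 0.32). Eng had 75 and 50 UMIs, or 28.3 and 24.7 CPM (-0.20, -0.74 to 0.34). Its ratio was -0.53 (-1.09 to 0.02) with the gates doubled and -0.50 (-1.07 to 0.04) with them halved. With the limit of 2 cancer-cell marker UMIs it was -0.27 (-0.87 to 0.31), and with no limit -0.19 (-0.51 to 0.13). At 2000 UMIs per cell an Eng UMI was found in 9 of 116 fibroblasts of sGC Ctr (7.76%, 3.61 to 14.2) and 7 of 128 of sGC ∆PC (5.47%, 2.23 to 10.9); the unthinned shares were 34.5% and 18.8%, at medians of 21474 and 3772 UMIs. With the gates halved the intervals of Tgfb3 (-0.85, -1.53 to -0.22, against -0.20 here) and Tgfbi (-0.27, -0.54 to -0.004) excluded 0, and with the limit of 2 cancer-cell marker UMIs so did that of Tgfbr2 (-0.16, -0.30 to -0.03). Under the gate Tgfbi (-0.26, -0.53 to 0.01) and Tgfb2 (-0.35, -0.84 to 0.13) were the lowest of the 10. The median over the members was -0.08 and over all genes -0.03. Tgfbr2 moved with the processing: with cells thinned to 2000 UMIs, which weighs cells alike and leaves out 3 and 48 shallower ones, the ratio was -0.57 (-0.99 to -0.16) and the share of cells with a UMI 56.0% and 39.8%, and in Leiden clusters, with 188 and 936 cells and 9.61 and 12.6 cancer-cell marker UMIs per 10000, it was -0.98.

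In macrophages 9 members had enough UMIs, with levels close in both libraries. Tgfb1 was lower in sGC ∆PC (6032 and 4583 UMIs, 229 and 208 CPM, -0.13, -0.19 to -0.08), as was Tgfbr2 (111 and 92.6 CPM, -0.26, -0.35 to -0.18). Tgfbr3 (9.75 and 15.2 CPM, 0.64, 0.40 to 0.88), Tgfb3 (5.12 and 7.09 CPM, 0.47, 0.13 to 0.81) and Acvrl1 (43.2 and 50.8 CPM, 0.23, 0.11 to 0.35) were higher. Tgfbr3 and Tgfb3 are genes that cancer cells hold at 75.7 and 83.7 and at 19.5 and 17.8 CPM, and the summed cancer-cell markers in macrophages were 1.29 and 1.30 per 10000. With the limit of 2 such UMIs the ratios were 0.83 (0.54 to 1.13) for Tgfbr3 and 0.49 (0.09 to 0.89) for Tgfb3. With no limit they were 0.36 (0.25 to 0.48) and 0.21 (0.002 to 0.42). The part of cancer-cell RNA in these ratios was not tested. Smad7 (0.05), Tgfbr1 (-0.04), Eng (-0.05) and Tgfbi (0.00, -0.03 to 0.03, from 20443 and 17052 UMIs) had intervals that included 0. In monocytes all 7 members with enough UMIs had intervals that included 0, from Tgfbr2 at -0.31 (-0.79 to 0.16) to Tgfbi at 0.05 (-0.02 to 0.12). In granulocytes Tgfb1 (47 and 57 UMIs, -0.14), Smad7 (24 and 32, 0.00) and Tgfbi (84 and 132, 0.23) did so as well.

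Both dendritic cells and T cells held 1 member past 2-fold. Among dendritic cells, 33 in each library, Tgfbi was at 101 CPM (39 UMIs) in the control and 282 CPM (93 UMIs) in sGC ∆PC, at a log2 ratio of 1.48 (0.92 to 2.06). It was found in 15 and 24 of these cells, at 2000 UMIs in 24.2% (11.1 to 42.3) and 37.5% (21.1 to 56.3), and without the top cell of each library the ratio was 1.73 (1.09 to 2.41). Monocytes and macrophages hold more Tgfbi than either group of dendritic cells. Of their markers, the monocyte list summed to 4.62 UMIs per 10000 in the dendritic cells of sGC Ctr and 3.95 in those of sGC ∆PC, with 2 and 0 of 6 at 0, and the macrophage list to 2.99 and 3.10, with 0 and 0 of 8 at 0. Tgfb1 in dendritic cells differed by 0.58 (-0.12 to 1.30). Smad7 in T cells, at 248 and 120 CPM, had a ratio of -1.05 (-1.76 to -0.36). At 2000 UMIs, with 5 and 2 shallower cells left out, it was found in 45.2% (29.8 to 61.3) and 20% (9.58 to 34.6) of T cells, and unthinned in 28 and 21 of 47. Without the top cells the ratio was -1.06 (-1.83 to -0.32), and with no limit on cancer-cell markers (76 and 78 cells) it was -0.59 (-1.13 to -0.05). The natural killer cell markers summed to 7.29 and 3.69 UMIs per 10000 in these T cells, with 2 and 3 of 6 at 0, and the T cell markers to 42.8 and 38.8; the part of this in the ratio was not tested. Tgfb1 in T cells differed by -0.08 (-0.84 to 0.69).

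In cancer cells all 10 members could be measured with narrow intervals, and 9 of the 10 excluded 0. Acvrl1 was the one past 2-fold, at 0.561 CPM (220 UMIs) in the control and 1.39 CPM (442 UMIs) in sGC ∆PC (1.31, 1.07 to 1.55). In the same direction 3.67% of all 15142 genes passed 2-fold and 0.112% in the other. A UMI of Acvrl1 was found in 2.88% and 3.82% of cancer cells, at most 5 and 3 in 1 cell, and in 0.175% and 0.404% of them at 2000 UMIs. Macrophages held 43.2 and 50.8 CPM of Acvrl1, and their markers summed to 0.747 UMIs per 10000 in the cancer cells of sGC Ctr and 1.46 in those of sGC ∆PC, with 0 of 8 at 0. Among the 595 and 1970 cancer cells with no macrophage-marker UMI, Acvrl1 had 5 and 35 UMIs, or 0.262 and 1.61 CPM, a ratio of 2.62 (1.26 to 4.33). These cells were 8.60% and 17.97% of the cancer cells, whose median depths were 51516 and 15340.5 UMIs. A shallower cell is more likely to hold no marker UMI, and the part of depth in this choice of cells was not tested. Tgfbr1, at 3.18 and 4.59 CPM, was the next (0.53, 0.42 to 0.64), and in the cells without macrophage markers its ratio was 0.49 (0.00 to 0.99). Tgfbi (0.20, 0.17 to 0.23), Tgfbr3 (0.14, 0.12 to 0.17), Tgfbr2 (0.09, 0.03 to 0.14) and Smad7 (0.05, 0.02 to 0.09) were higher in sGC ∆PC. Tgfb2 (-0.27, -0.46 to -0.09), Tgfb3 (-0.13, -0.18 to -0.08) and Eng (-0.12, -0.17 to -0.08) were lower, and Tgfb1 did not differ beyond counting error (-0.01, -0.04 to 0.02). In the fewer cancer cells without macrophage markers, the intervals of Tgfbi (0.05, -0.06 to 0.17) and Tgfbr3 (0.10, -0.01 to 0.20) included 0. That of Eng (-0.25, -0.44 to -0.06) did not. With all gates doubled, which kept 3812 and 6067 cancer cells, the intervals of Tgfb2 (-0.09), Tgfb3 (-0.03), Eng (-0.05) and Smad7 (0.02) included 0. With cells thinned to 2000 UMIs the sign turned for Smad7 (-0.15), Tgfbr2 (-0.08) and Tgfbr3 (-0.05).

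Within the cancer cells and the macrophages, some members also differed between groups of cells. Cancer cells high in hypoxia genes (at least 20 UMIs per 10000 of Car9, Ndrg1, Slc2a1, Bnip3 and Ankrd37, a list chosen after the data were seen) numbered 84 and 90, at median depths of 44073 and 12184 UMIs (51619 and 15355 in the others). Smad7 stood at 128 and 141 CPM in them against 39.3 and 40.9 CPM in the other cancer cells, log2 ratios of 1.70 (1.56 to 1.83) and 1.785 (1.63 to 1.94). Eng was low there, at 5.31 and 5.80 CPM against 24.7 and 22.7 (-2.22, -2.95 to -1.57, and -1.96, -2.84 to -1.22). Tgfbr3 was higher (0.58 and 0.81), and Tgfb3 (-0.60 and -1.44) and Tgfbr2 (-0.83 and -0.57) were lower, each with an interval that excluded 0 in both libraries. At a cut of 10 UMIs, which took in 365 and 508 cells, the ratios were 1.41 and 1.42 for Smad7 and -1.23 and -1.09 for Eng, but for Tgfbr2 they were -0.45 (-0.66 to -0.26) and -0.10 (-0.32 to 0.11). Within 20% of the cut of 20 lay 98 and 142 cells, so the cut divides a range. In cycling cancer cells (1489 and 2903, at least 5 UMIs per 10000 of Mki67, Top2a and Cdk1) Tgfbi (-0.65 and -0.32), Tgfbr3 (-0.49 and -0.38) and Tgfb3 (-0.50 and -0.33) were lower than in the rest, and Eng differed by 0.01 and 0.11. Acvrl1 went opposite ways in the cycling cells, higher than in the rest in sGC Ctr (0.46, 0.05 to 0.87) and lower in sGC ∆PC (-0.48, -0.80 to -0.16). These ratios rest on 78 and 114 Acvrl1 UMIs in the cycling cells. Within 20% of the cycling cut lay 351 and 1277 cells. Cycling cells were deeper, with medians of 73342 and 17903 UMIs against 47380.5 and 14496, and the part of depth was not tested.

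**Figure D4:**
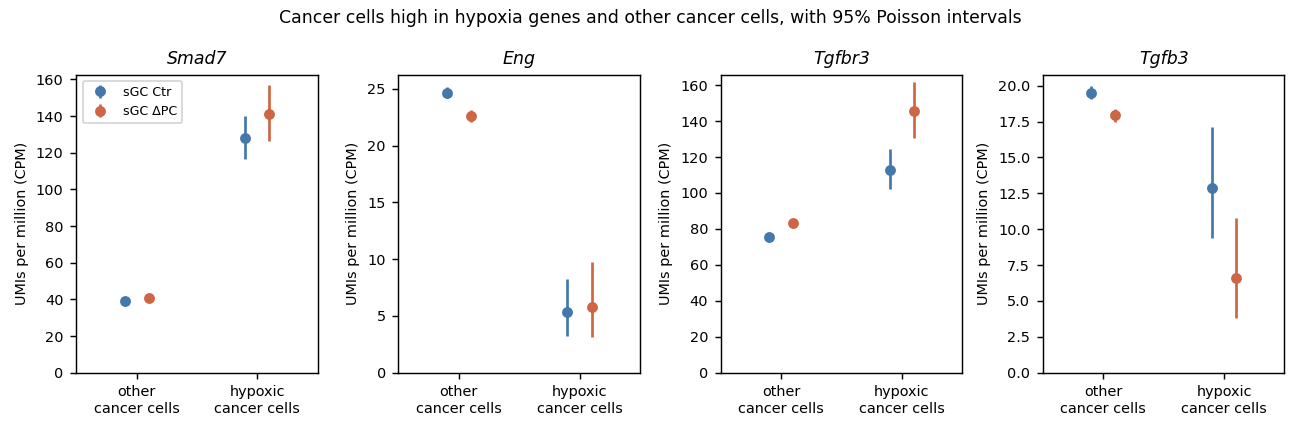
Levels of Smad7, Eng, Tgfbr3 and Tgfb3 (vertical axes, CPM, from 0) in cancer cells high in hypoxia genes and in the other cancer cells, for sGC Ctr (blue) and sGC ∆PC (orange), with 95% Poisson intervals. Smad7 was at 128 and 141 CPM in the hypoxic cells against 39.3 and 40.9 in the others, and Eng at 5.31 and 5.80 against 24.7 and 22.7.

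Macrophages were divided in a like manner. The groups were again cut from marker lists chosen after the data were seen, and many cells lie near the cuts (38 to 166 within 20%). Those high in MHC class II genes (342 and 645 cells) had 1126 and 1113 CPM of Tgfbi against 717 and 662 in the other macrophages (0.65, 0.60 to 0.70, and 0.75, 0.71 to 0.80), and less Tgfbr2 (-0.72 and -0.75). Those high in Mrc1, Folr2 and Ccl8 (303 and 270 cells) had more Tgfbr2, 182 and 125 CPM against 96.3 and 87.4 (0.92 and 0.52), and less Smad7 (-0.75 and -0.56), Tgfbr1 (-0.65 and -0.57) and Tgfbi (-0.52 and -0.34). Those high in Gpnmb, Mmp12 and Hmox1 (102 and 182 cells) had 439 and 459 CPM of Tgfbi against 792 and 800 (-0.85 and -0.80). Cycling macrophages (238 and 300 cells) had less Acvrl1 (-1.17 and -0.78) and Smad7 (-0.78 and -0.70). All these intervals excluded 0 in both libraries. The cycling macrophages of sGC ∆PC were shallow, with a median of 2588 UMIs against 8542 in the rest, whereas those of sGC Ctr were deep (17108 and 10962), and the part of depth in this ratio was not tested.

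Around the members, 39 other genes of the pathway (latency and activation, further receptors, Smads, intracellular regulators and genes TGF-beta is known to induce) gave 351 pairs of gene and class, of which 180 had enough UMIs. Of these 13 passed 2-fold, 6 higher and 7 lower in sGC ∆PC, and all of them belonged to the latency and induced groups. Over all genes the share past 2-fold lay between 0.575% (monocytes) and 3.79% (pericytes). In ECs 3 of 24 measured genes passed, beside 1.47% of all genes. Thbs1 (thrombospondin, which can activate latent TGF-beta) was at 49.3 and 190 CPM (1.95, 1.56 to 2.35), Ccn2 (connective tissue growth factor) at 60.1 and 155 (1.37, 0.99 to 1.755) and Ltbp4, which binds latent ligand in the matrix, at 160 and 69.3 (-1.21, -1.60 to -0.83). In pericytes 3 of 12 passed and all were lower, beside 3.79% of all genes past 2-fold and 2.59% lower: Ccn2 was at 350 and 70.3 CPM (-2.32, -3.27 to -1.48), Tagln, an actin-binding protein of contractile cells, at 1862 and 655 (-1.51, -1.80 to -1.22) and Thbs1 at 243 and 114 (-1.10, -1.87 to -0.38). Ccn2 and Thbs1 thus pointed in opposite directions in ECs and pericytes. The difference between the classes was not tested. The pericyte ratios rest on 27 and 23 cells with 308254 and 184833 UMIs over all genes. How far they depend on single cells or on the gate, as Tgfb3 did in this class, is not shown here.

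In fibroblasts 3 of 32 genes passed and all were lower, beside 1.03% of all genes, with Ltbp4 at -1.44 (-2.04 to -0.87), the smooth muscle actin Acta2 at -1.25 (-1.54 to -0.96) and Tagln at -1.06 (-1.37 to -0.76). Ccn2 in fibroblasts (45 and 17 UMIs, -1.02, -1.92 to -0.18) did not reach 2-fold once the pseudocount was added. In macrophages Thbs1 (105 and 223 CPM, 1.09) passed among 32 genes, beside 1.12% of all genes. Thbs1 did so as well in granulocytes (916 and 2110 CPM, 1.20, 1 of 10) and in cancer cells (6.72 and 15.6 CPM, 1.22), where Postn, the matrix protein periostin, was the second of 37 (2.27 and 5.50 CPM, 1.28). Of all genes 2.93% passed 2-fold in granulocytes and 3.78% in cancer cells. Thbs1 was thus past 2-fold in 5 of the 9 classes, higher in 4 and lower in pericytes. It was also a leading gene of monocytes, at about 103 times its level in the other classes pooled, whose UMIs come mostly from cancer cells. Granulocytes too stood far above cancer cells in Thbs1 (916 and 2110 against 6.72 and 15.6 CPM). The granulocyte markers summed to 0.227 and 0.545 UMIs per 10000 in cancer cells and to 0.108 and 0.305 in ECs. The monocyte markers summed to 0.123 and 0.218 in cancer cells and to 0.243 and 0.194 in ECs. The part of such RNA in the Thbs1 ratios was not tested. In monocytes, dendritic cells and T cells 0 of 27, 5 and 1 passed, beside 0.575%, 2.34% and 3.6% of all genes. The further receptors, the Smads and the intracellular regulators held 26, 26 and 41 measured pairs, of which 0 passed. Among the genes with most UMIs in these groups, Bmpr2 lay between -0.17 and 0.15 over its classes, Bmpr1a between -0.08 and 0.49, Smad4, the shared partner of the receptor-activated Smads, between -0.11 and 0.52, Smad1 between -0.57 and 0.21, Pmepa1 between -0.71 and 0.10 and Tgif1 between -0.10 and 0.55.

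**Figure D5:**
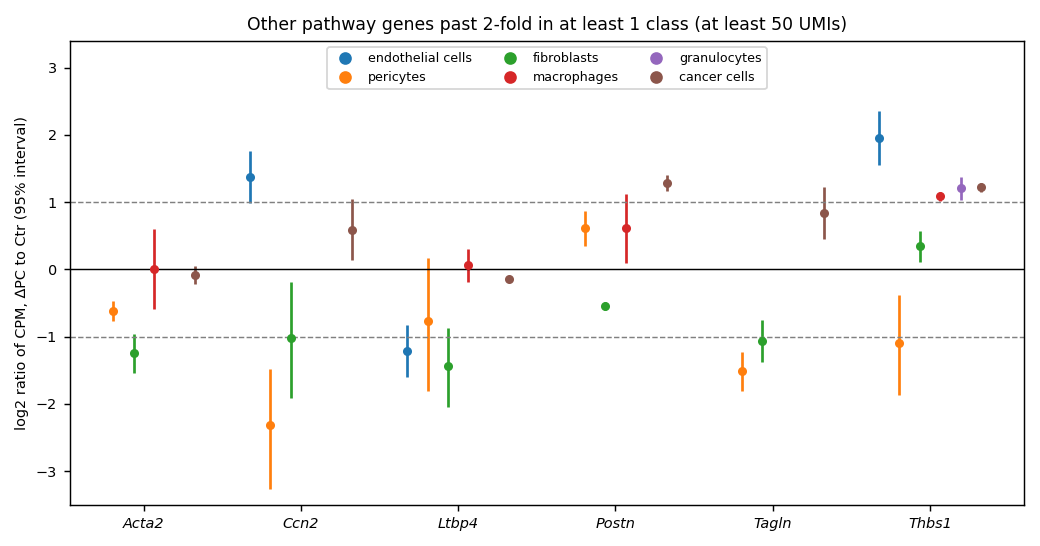
Log2 ratio between the libraries (vertical axis, positive where sGC ∆PC is higher, 95% counting intervals as lines, 2-fold dashed) for the 6 other pathway genes past 2-fold in at least 1 class. Points are colored by class and drawn where a gene had at least 50 UMIs in ECs, pericytes, fibroblasts, macrophages, granulocytes or cancer cells. Monocytes, dendritic cells and T cells, where no pathway gene passed, are not drawn. Ccn2 was at 1.37 in endothelial cells and -2.32 in pericytes, and Thbs1 at 1.95 and -1.10.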

How the data were processed

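The authors made 1 library per group with 10x Genomics 3′ chemistry and counted reads with Cell Ranger 6.1.1 on mm10 (GENCODE vM23); the deposited values are raw UMI counts for each gene and barcode, not normalized. Cells needed under 10% mitochondrial UMIs, and on a log scale their UMIs and detected genes had to lie no more than 3 scaled median absolute deviations from the median of their library. A cell entered a class when at least 3 markers (2 for cancer cells) and a set share of its UMIs belonged to that class alone; cells passing several classes were left out as possible doublets, no doublet caller was run, and classes under 20 cells in either library (natural killer, B and erythroid cells) are not described. UMIs were summed per class and library and scaled to CPM. CPM carry exact Poisson intervals, shares exact binomial ones and ratios exact conditional ones, each at 95% and for counting error only. A difference counts as past 2-fold on log2 ratios with a pseudocount of 0.5 UMIs for any gene whose summed UMIs reach 50; named ratios use none. With 1 library per group no test was run. Nothing in the labels ties cells to a tumor.

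Python 3.11.15, numpy 2.4.6, scipy 1.17.1, pandas 2.3.3, scanpy 1.11.5, leidenalg 0.10.2 and matplotlib 3.10.9 were used. On simulated counts with 200 of 5936 EC genes changed, 99.5% came out in the right direction and 95.8% of intervals held the true value. Those counts held counting error only, and each change was 2-fold or larger. The simulation thus does not cover smaller changes or the spread between cells and tumors. The members, the marker and pathway lists and the cuts were chosen with earlier results of these data known, and the subsets of macrophages and cancer cells after their values were seen. Named are the members, pathway genes past 2-fold or otherwise those with most UMIs in their group, and the 3 genes nearest to each member. A gene of the pathway list is not reported here. Positions are from GENCODE M21 (GRCm38). Alternatives were other cell filters, gates and limits, thinning, and Leiden clusters of each library (3000 variable genes, 20 components, 15 neighbors, resolution 1.0).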

Additional observations from a re-analysis of the deposited data

How the results depend on the processing

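No paired analysis was possible because each group is a single library, and for the same reason no library could be left out. The cell filters, the limit of 20% mitochondrial UMIs and the limit of 2 cancer-cell marker UMIs per 10000 moved none of the values that answer a comparison beyond their counting interval. With no such limit (chosen after seeing the data) the log2 ratios were -0.87 for Eng and -0.72 for Tgfb1 in ECs, and -0.20 for Tgfb1 and -0.11 for Tgfbi in macrophages. In Leiden clusters they were -1.37 and -1.001 in ECs, -0.30 and -0.28 in macrophages, and -0.61 for Tgfbr1 and -0.98 for Tgfbr2 in fibroblasts. A cluster took the name of a non-cancer class whose gate it reached, whatever its cancer-cell markers. In sGC ∆PC those named ECs, pericytes, fibroblasts and granulocytes also passed the cancer-cell gate (1.565, 1.418, 1.572 and 1.499 times it). The cluster ratios of these classes thus include cells with cancer-cell RNA. Thinned to 2000 UMIs the ratios were -0.43 for Eng in ECs, -0.0645 for Tgfb1 and -0.17 for Tgfbi in macrophages, and -0.57 for Tgfbr2 in fibroblasts. The doubled gate gave 0.045 for Tgfbi in macrophages and the halved gate 0.12 for Tgfbr2 in fibroblasts. The 4 pairs of members past 2-fold became 1 after thinning (fewer UMIs), 10 in clusters and 2 relative to the median gene of the class, where Tgfb3 (-0.98) and Smad7 (-0.94) dropped below the threshold, and the 13 pairs of other pathway genes became 6 after thinning and 29 in clusters. Of the 4, Tgfb3 in pericytes was also under 2-fold with the gates doubled (-0.21), with no limit (-0.79) and in clusters (-0.54), Smad7 in T cells with no limit (-0.59) and Acvrl1 in cancer cells in clusters (0.99). No cluster of sGC ∆PC was named T cells or dendritic cells, so Smad7 and Tgfbi in those classes could not be checked in clusters. Among ratios whose interval excluded 0, the sign turned for Acvrl1 in macrophages in clusters (-0.0497) and, thinned, for Smad7 (-0.15), Tgfbr2 (-0.0772) and Tgfbr3 (-0.0454) in cancer cells. Over all pairs with enough UMIs it turned in 6 of 52 with the gates doubled, 7 with them halved, 6 with the limit of 2, 10 with no limit and 12 of 48 in clusters, where Smad7 in ECs was -0.54 and Tgfbr2 in ECs -1.11. The turned ratio had an interval that excluded 0 in 9 of the 12 in clusters and in 2 of the 10 with no limit. In 23 pairs in clusters and 8 with no limit, an interval that had included 0 excluded it. The cause was not tested. The few cells of pericytes, dendritic cells and T cells and the low UMIs per granulocyte limit what can be seen in them.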
